A study of Saccharomyces cerevisiae with 6 samples.

Results

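Glycolysis and alcoholic fermentation were followed through 31 genes of budding yeast, Saccharomyces cerevisiae. They encode the enzymes from hexose phosphorylation to pyruvate decarboxylation with their isoenzymes, the enzymes that make and remove fructose 2,6-bisphosphate, and the transcription regulators GCR1, GCR2 and TYE7. The members were picked by gene name among the non-control spots of the arrays, EMI2 through its systematic name YDR516C. They are 31 of the 6256 genes measured, and all 31 were among the 6119 genes tested. The arrays compared 3 strains carrying a mutant tra1 gene with a strain carrying TRA1, which encodes the large protein that SAGA and NuA4, both histone acetyltransferase complexes, have in common. The mutant genes were tra1_P3408A in strain CY1507, tra1_SRR3413 in CY1531 and tra1_S3463A in CY1514, and CY1524 carried the reference gene TRA1_SB. In all 4 strains the chromosomal copy was disrupted (TRA1::Tn10LUK), and the only intact copy was a myc-tagged gene on the LEU2 centromeric plasmid YCplac111. Each allele is 1 strain, so allele and strain cannot be told apart. Every allele was set against TRA1 on 2 dual-colour Agilent arrays, called biological replicates in the series. The mutant was labelled with Cy5 on array 1 and with Cy3 on array 2. The source field of array 1 of tra1_S3463A names the tra1_SRR3413 strain, and the title was followed.

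In glycolysis, hexokinases and a glucokinase phosphorylate glucose, the sugar phosphate is split into triose phosphates, and these are oxidised to pyruvate, which pyruvate decarboxylase and alcohol dehydrogenase turn into ethanol. Yeast on glucose makes the main enzymes of this route in very large amounts, while many steps have a second isoenzyme of lower abundance that is used in other conditions. Gcr1 works with its partner Gcr2 and with Rap1 at the promoters of the main glycolytic genes, and the helix-loop-helix protein Tye7 activates some of the same genes.

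All values below are log2 (mutant / TRA1) unless called signals. A mean is over the 2 arrays of an allele and is given ± SD (n = 2), and intervals are 95% intervals from the fit. "Passed" means an adjusted p of at most 0.05 in limma, with Benjamini-Hochberg adjustment over the 6119 genes. The 3 comparisons share the TRA1 strain, and no array measured that strain against itself, so its own spread is not in the test. The labels do not say whether 1 extract of it served several arrays. The median signal of an array was 1167 to 3617 in Cy3 and 1908 to 2482 in Cy5. TRA1 mRNA itself was above 0 on all 6 arrays, at 0.83 and 1.21 in tra1_P3408A, 0.94 and 1.93 in tra1_SRR3413, and 0.73 and 1.75 in tra1_S3463A. TRA1 passed in tra1_SRR3413 (adjusted p = 0.0260) and in tra1_S3463A (adjusted p = 0.0496) but not in tra1_P3408A (adjusted p = 0.0887). Without array 1 or 2 of tra1_P3408A it passed in none of the 3, without array 2 of tra1_SRR3413 it did not pass there (adjusted p = 0.158), and without array 1 or 2 of tra1_S3463A it did not pass there (adjusted p = 0.0576 and 0.310). LEU2, the marker of the plasmid, had means of -0.17, -0.40 and -0.19 in tra1_P3408A, tra1_SRR3413 and tra1_S3463A, and URA3 -0.02, -0.12 and -0.13. Of LEU2 and URA3, LEU2 in tra1_SRR3413 alone passed (adjusted p = 0.0483), a call that leaving out any single array ended (adjusted p from 0.0801 to 0.322). Whether the TRA1 mRNA level bears on the results below was not tested. With the array number, which marks the dye orientation, as a block, TRA1 passed in tra1_P3408A too (adjusted p = 0.00369).

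The most abundant enzymes could not be compared, because their spots were at the ceiling of the scanner. Of the 31 members, 17 were never saturated, and GLK1, TDH2 and TDH3 were saturated on some arrays or in 1 of their spots. The remaining 11 had no array on which a spot was below saturation in both channels. These were PGI1, FBA1, TPI1, TDH1, PGK1, GPM1, ENO1, ENO2, CDC19, PDC1 and PDC5, which cover every step from glucose 6-phosphate to acetaldehyde except phosphofructokinase. Where both channels were saturated, signals lay between 65089 and 65130 whatever the gene. The normalized ratio was then the same for all such genes of an array: -0.82 for 10 of the 11 on array 1 of tra1_P3408A, -0.56 for all 11 on array 1 of tra1_SRR3413 and -0.69 for 10 of them on array 1 of tra1_S3463A. On the arrays numbered 2 it was 1.07 for PDC1 alone in tra1_P3408A, 0.06 for 9 members in tra1_SRR3413 and -0.13 or -0.14 for all 11 in tra1_S3463A. Such a ratio is set by the normalization curve of the array and holds no information on the gene, so no fold change is given for these 11 genes. On array 2 of tra1_P3408A the mutant channel, in Cy3, stayed below the ceiling for most of them, at signals from 27977 for ENO2 to 58192 for TDH1, while the TRA1 channel was at the ceiling for every one. On array 2 of tra1_SRR3413 the mutant channel was also below the ceiling for TPI1 (56508) and ENO2 (57470). None of the 11 passed in any allele, and they count as not passed below. ENO2 passed in every allele and ENO1 in tra1_S3463A with the array number as a block, and with the slide as a block all 11 passed in tra1_S3463A. These calls rest on saturated spots. The map of saturated pixels shows which strain and array was affected for each gene.

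**Figure D1:**
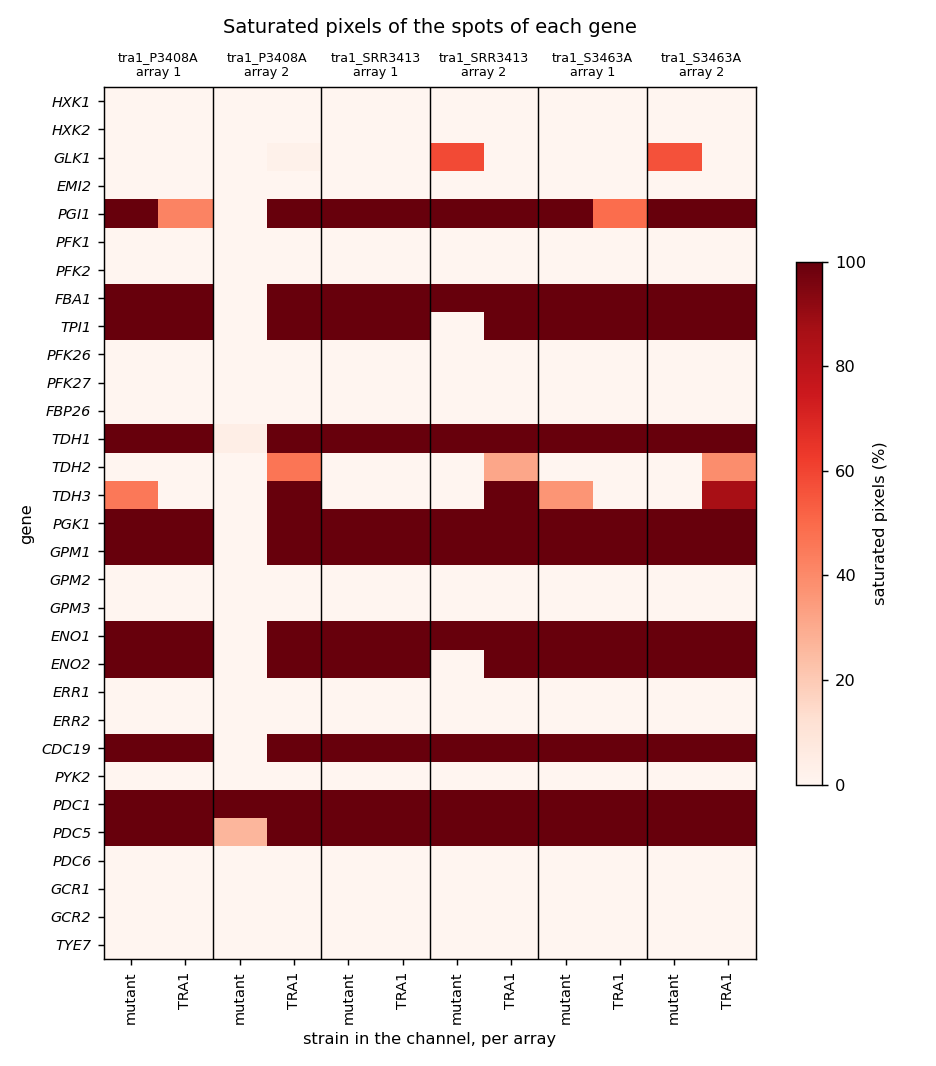
Percentage of saturated pixels in the spots of each of the 31 genes (rows, in the order of the pathway), for the mutant and the TRA1 channel of each of the 6 arrays (columns). Dark rows mark the 11 genes with no usable spot pair, and only on array 2 of tra1_P3408A was the mutant channel of most of them below saturation.

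Of the 31 members 10 passed in at least 1 allele, against 23.6% of all genes tested, and 5 passed in all 3, against 10.5%. In tra1_P3408A 7 of 31 members passed (22.6%, against 12.7% of all genes tested), 1 higher (4.76% of all genes) and 6 lower (7.93%). In tra1_SRR3413 8 of 31 passed (25.8%, against 21.1%), 2 higher (9.33%) and 6 lower (11.7%). In tra1_S3463A 8 of 31 passed (25.8%, against 15.1%), 1 higher (6.37%) and 7 lower (8.69%). Over all 31, the members' share was thus close to the background in tra1_SRR3413, but 11 of the 31 could not be read. All calls were among the 20 members with a usable spot. Of these 20, 7 (35%), 8 (40%) and 8 (40%) passed in tra1_P3408A, tra1_SRR3413 and tra1_S3463A. The median over these 20 was -0.48 in tra1_P3408A, -0.20 in tra1_SRR3413 and -0.30 in tra1_S3463A, against -0.010, -0.0074 and 0.0016 over all genes tested. HXK2 was higher in all 3 alleles, and EMI2, GPM2, PYK2 and GCR1 were lower in all 3. PFK26, TDH2, TDH3, ERR1 and ERR2 passed in 1 or 2 alleles, and 21 members passed in none. With the array number as a block 12, 13 and 13 of the 31 passed in tra1_P3408A, tra1_SRR3413 and tra1_S3463A. Of all genes 36.2%, 49.2% and 43.1% passed, so the share over all 31 members was near the background under that block. Without the genes at the ceiling these counts were 11, 12 and 11 of 20, a larger share than that of all genes in each allele. The slide as a block gave 14, 13 and 25 of the 31, where 43.8%, 51.1% and 48.7% of all genes passed, and left 1 residual degree of freedom. A block removes deviations shared by the alleles from the spread, those of TRA1 included, so its p-values may be too small. With only 1 array of tra1_P3408A left, limma called 0 members (array 1 left out) or EMI2 alone (array 2 left out) in that allele. Median centring in place of loess left 4 calls in tra1_P3408A and 4 in tra1_S3463A, all lower, and 8 in tra1_SRR3413, where 8.65%, 11.8% and 17.7% of all genes passed.

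**Figure D2:**
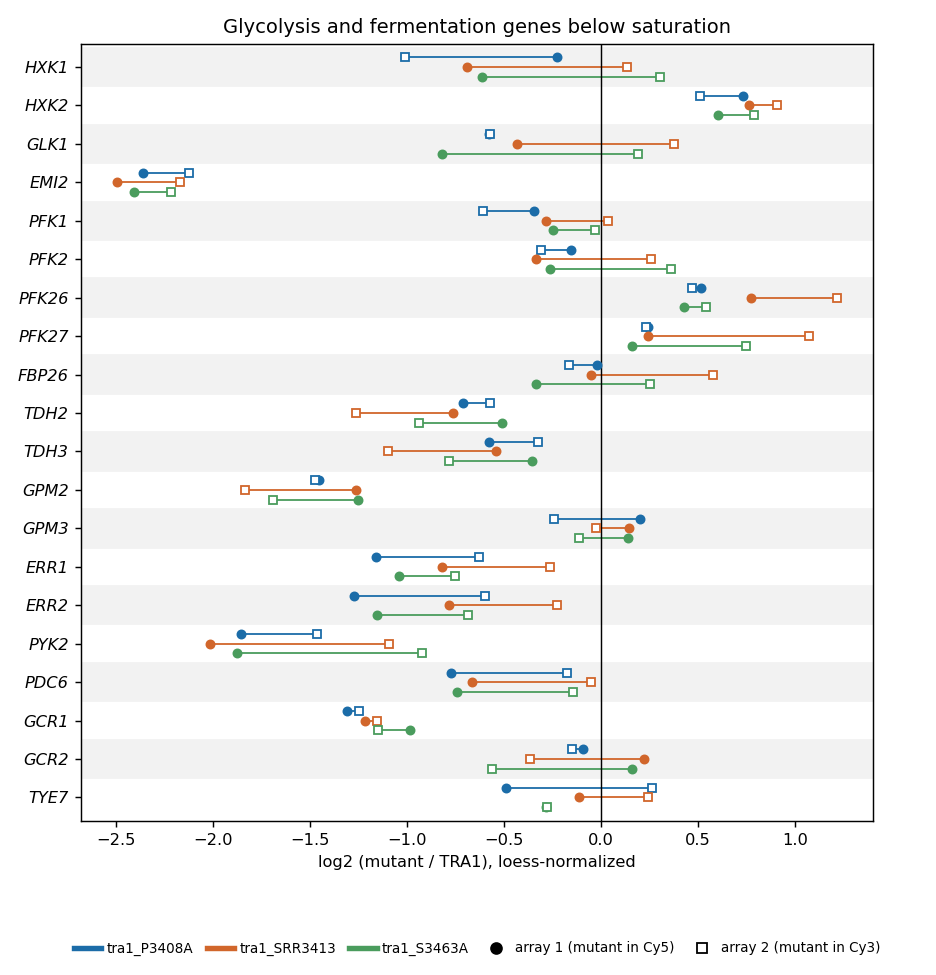
Log2 (mutant / TRA1) on each array for the 20 members with a usable spot, with filled circles for array 1 (mutant in Cy5), open squares for array 2 (mutant in Cy3) and 1 colour per allele. EMI2 lay between -2.49 and -2.13 on all 6 arrays, HXK2 between 0.51 and 0.91, and most other genes nearer to 0 with a gap between the arrays of an allele.

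Among the genes of hexose phosphorylation 2 of 4 passed in each allele, in opposite directions: HXK2 was higher and EMI2 lower. Of all genes tested, 12.7% passed in either direction in tra1_P3408A, 21.1% in tra1_SRR3413 and 15.1% in tra1_S3463A. EMI2 is a paralog of the glucokinase gene GLK1 and is named for a role early in meiosis. Its mutant signals were 2713 and 939 in tra1_P3408A, 2282 and 2188 in tra1_SRR3413 and 2414 and 2706 in tra1_S3463A. The TRA1 signals on the same arrays were 6870 and 8300, 7101 and 6593, and 6928 and 7736. Every mutant signal of EMI2 was thus below every TRA1 signal, even before the dyes were balanced. After normalization EMI2 stood at -2.36 and -2.13 in tra1_P3408A, -2.49 and -2.17 in tra1_SRR3413, and -2.41 and -2.22 in tra1_S3463A. The means were -2.24 ± 0.17 (4.74-fold lower, adjusted p = 0.00140), -2.33 ± 0.23 (5.03-fold lower, adjusted p = 0.000778) and -2.31 ± 0.13 (4.97-fold lower, adjusted p = 0.00152). EMI2 had the largest change of the 20 usable members in every allele, and ranked 18, 25 and 12 from the lowest among the 6119 genes in tra1_P3408A, tra1_SRR3413 and tra1_S3463A.

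HXK2 encodes the main hexokinase of cells on glucose, which also takes part in glucose repression. It stood at 0.73 and 0.51 in tra1_P3408A, 0.76 and 0.91 in tra1_SRR3413, and 0.60 and 0.79 in tra1_S3463A. HXK2 was above 0 on all 6 arrays. The values of tra1_S3463A overlapped those of each other allele, while both of tra1_SRR3413 lay above both of tra1_P3408A. The means were 0.62 ± 0.16 (1.54-fold higher, adjusted p = 0.0262), 0.83 ± 0.10 (1.78-fold, adjusted p = 0.00804) and 0.69 ± 0.13 (1.62-fold, adjusted p = 0.0171). HXK1, the isoenzyme used on other carbon sources and a close copy of HXK2 in sequence, did not pass in any allele and spread widely between arrays, from -1.01 to 0.30 with 4 of 6 arrays below 0. Cross-hybridization between the probes of HXK1 and HXK2 was not tested. GLK1, the glucokinase gene, lay between -0.82 and 0.38 with 4 of 6 arrays below 0 and did not pass. One of its 2 spots was saturated in the mutant channel on array 2 of tra1_SRR3413 and of tra1_S3463A, and without saturated spots it stood at -0.58, 0.05 and -0.25 in tra1_P3408A, tra1_SRR3413 and tra1_S3463A.

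The call of HXK2 depended on single arrays. In tra1_P3408A it was lost without array 1 (0.51, adjusted p = 0.306) or array 2 (0.73, adjusted p = 0.150). In tra1_SRR3413 it was lost without array 2 (0.76, adjusted p = 0.0772). In tra1_S3463A it was lost without array 1 (0.79, adjusted p = 0.0856) or array 2 (0.60, adjusted p = 0.163), and also where array 1 was counted with tra1_SRR3413 (0.79, adjusted p = 0.0559). Median centring gave 0.52 for HXK2 in both tra1_P3408A (adjusted p = 0.101) and tra1_S3463A (adjusted p = 0.0857). EMI2 passed in tra1_SRR3413 and tra1_S3463A under all 17 alternatives tried, and lost its call only in tra1_P3408A without array 1 (-2.13, adjusted p = 0.0582).

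In upper glycolysis none of the 5 members passed in any allele, and only PFK1 and PFK2 could be read. They encode the alpha and beta subunits of phosphofructokinase, the enzyme that commits hexose to glycolysis. PFK1 stood at -0.35 and -0.61 in tra1_P3408A, -0.28 and 0.04 in tra1_SRR3413, and -0.25 and -0.03 in tra1_S3463A. Its mean in tra1_P3408A, -0.48 ± 0.18, had an adjusted p of 0.0721, and 0.0251 with the array number as a block. At an unadjusted p under 0.05, limma gave PFK1 in tra1_P3408A alone and PFK2 in no allele. PFK2 lay between -0.34 and 0.36, with means of -0.23, -0.04 and 0.05 in tra1_P3408A, tra1_SRR3413 and tra1_S3463A. The interval of PFK2 was -0.73 to 0.26 in tra1_P3408A, -0.54 to 0.45 in tra1_SRR3413 and -0.45 to 0.54 in tra1_S3463A, so smaller changes than these bounds could not be seen. PGI1, FBA1 and TPI1, for phosphoglucose isomerase, aldolase and triose phosphate isomerase, were at the ceiling.

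Fructose 2,6-bisphosphate is a strong activator of phosphofructokinase. It is made by the kinases encoded by PFK26 and PFK27 and broken down by the phosphatase encoded by FBP26. PFK26 and PFK27 were above 0 on all 6 arrays, but of the 3 genes PFK26 alone passed, and in tra1_SRR3413 alone. PFK26 stood at 0.52 and 0.47 in tra1_P3408A, 0.77 and 1.21 in tra1_SRR3413, and 0.43 and 0.54 in tra1_S3463A. Both arrays of tra1_SRR3413 thus lay above the 4 arrays of the other alleles. The mean in tra1_SRR3413 was 0.99 ± 0.31 (1.99-fold higher, adjusted p = 0.00715), against 0.49 ± 0.03 in tra1_P3408A (adjusted p = 0.0670) and 0.48 ± 0.08 in tra1_S3463A (adjusted p = 0.0629). With the array number as a block PFK26 passed in these alleles as well (adjusted p = 0.0151 and 0.0148). Without array 2 of tra1_SRR3413 PFK26 stood at 0.77 there and its call was lost (adjusted p = 0.0625). PFK27 stood at 0.24 and 0.23 in tra1_P3408A, 0.24 and 1.07 in tra1_SRR3413, and 0.16 and 0.75 in tra1_S3463A. The higher PFK27 values of tra1_SRR3413 and tra1_S3463A were thus those of array 2, and both of these arrays were on the same slide. The adjusted p of PFK27 was 0.564, 0.0923 and 0.233 in the 3 alleles, and in tra1_SRR3413 it was 0.0156 with the array number as a block and 0.0338 without array 1. FBP26 lay between -0.33 and 0.58 over the 6 arrays and did not pass.

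Lower glycolysis, from glyceraldehyde 3-phosphate to pyruvate, has 13 members, of which 4 passed in tra1_P3408A, 4 in tra1_SRR3413 and 5 in tra1_S3463A, all lower, a direction in which 7.93%, 11.7% and 8.69% of all genes passed. Of the 13, 6 were at the ceiling. The genes that passed in all 3 alleles were GPM2 and PYK2. GPM2 is a homolog of the phosphoglycerate mutase gene GPM1 that is thought to make no active enzyme. It stood at -1.45 and -1.47 in tra1_P3408A, -1.26 and -1.84 in tra1_SRR3413, and -1.25 and -1.69 in tra1_S3463A. The mutant signals of GPM2 lay between 1351 and 3326, all below the TRA1 signals of 3599 to 7825. The means were -1.46 ± 0.01 (2.76-fold lower, adjusted p = 0.00690), -1.55 ± 0.41 (2.93-fold lower, adjusted p = 0.00435) and -1.47 ± 0.31 (2.77-fold lower, adjusted p = 0.00671). GPM3, the other GPM1 homolog, lay between -0.24 and 0.20 on the 6 arrays, with means of -0.02, 0.06 and 0.01 in tra1_P3408A, tra1_SRR3413 and tra1_S3463A. It did not pass, and its intervals reached from -0.38 to 0.42 at most.

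PYK2 encodes a pyruvate kinase used when the flux through glycolysis is low, while CDC19, at the ceiling here, encodes the main one. PYK2 stood at -1.86 and -1.47 in tra1_P3408A, -2.02 and -1.09 in tra1_SRR3413, and -1.87 and -0.92 in tra1_S3463A. In every allele the value on array 1 was lower than that on array 2, and all 6 values were below -0.9. The allele means were -1.66 ± 0.28 (3.16-fold lower, adjusted p = 0.0208), -1.55 ± 0.65 (2.94-fold lower, adjusted p = 0.0181) and -1.40 ± 0.67 (2.63-fold lower, adjusted p = 0.0315). The spread was the widest among the 5 genes that passed in all 3 alleles, and so were the intervals of PYK2, such as -2.12 to -0.67 in tra1_S3463A.

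ERR1 and ERR2 are enolase-like genes near chromosome ends whose copies are nearly identical, so a signal cannot be assigned to 1 of them. They gave low signals, 213 to 555 in the mutants and 379 to 672 in TRA1. ERR1 stood at -1.16 and -0.63 in tra1_P3408A, -0.82 and -0.27 in tra1_SRR3413, and -1.04 and -0.76 in tra1_S3463A. It passed in tra1_P3408A (-0.90 ± 0.37, 1.86-fold lower, adjusted p = 0.0358) and tra1_S3463A (-0.90 ± 0.20, 1.87-fold lower, adjusted p = 0.0320) but not in tra1_SRR3413 (-0.54 ± 0.39, adjusted p = 0.0975). Both genes were below 0 on all 6 arrays and lowest on array 1 within each allele. ERR2 stood at -1.28 and -0.60 in tra1_P3408A, -0.79 and -0.23 in tra1_SRR3413, and -1.16 and -0.68 in tra1_S3463A. It passed in tra1_P3408A (-0.94, 1.91-fold lower, adjusted p = 0.0473) and tra1_S3463A (-0.92, 1.89-fold lower, adjusted p = 0.0460) but not in tra1_SRR3413 (-0.51, adjusted p = 0.162). With the array number as a block ERR1 and ERR2 passed in tra1_SRR3413 too (adjusted p = 0.00428 and 0.00418). Median centring ended the calls of both genes in tra1_P3408A (adjusted p = 0.0828 and 0.108) and in tra1_S3463A (adjusted p = 0.0507 and 0.0681).

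TDH2 and TDH3 encode isoenzymes of glyceraldehyde 3-phosphate dehydrogenase and are near-identical in sequence, so the probe of each may read both. TDH2 stood at -0.71 and -0.58 in tra1_P3408A, -0.77 and -1.26 in tra1_SRR3413, and -0.51 and -0.94 in tra1_S3463A. All 6 values of TDH2 were below 0, and it passed in tra1_SRR3413 (-1.01 ± 0.35, 2.02-fold lower, adjusted p = 0.0121) and tra1_S3463A (-0.72 ± 0.30, 1.65-fold lower, adjusted p = 0.0393). In tra1_P3408A its mean was -0.64 ± 0.10 (adjusted p = 0.0582, and 0.0124 with the array number as a block). On array 2 of the 3 alleles 31.6% to 46.2% of the TRA1 pixels of TDH2 were saturated. With spots marked as saturated left out, the means of TDH2 were -0.67 in tra1_P3408A and -0.75 in tra1_S3463A. In tra1_SRR3413 no spot of TDH2 was marked as saturated despite 31.6% saturated TRA1 pixels on array 2. Its mean of -1.01 therefore stayed the same, and leaving out marked spots is no check on saturation there. Median centring ended the call of TDH2 in tra1_S3463A (-0.98, adjusted p = 0.0549). On array 1 of tra1_P3408A, tra1_SRR3413 and tra1_S3463A, genes saturated in both channels stood at -0.82, -0.56 and -0.69. Of the array 1 values of TDH2 and TDH3, only that of TDH2 in tra1_SRR3413 lay below the value of these saturated genes. How far the normalization curve sets the array 1 values of TDH2 and TDH3 was not tested. TDH3 stood at -0.58 and -0.33 in tra1_P3408A, -0.54 and -1.10 in tra1_SRR3413, and -0.36 and -0.78 in tra1_S3463A. It passed in tra1_SRR3413 alone (-0.82 ± 0.39, 1.77-fold lower, adjusted p = 0.0265). Its TRA1 spots were saturated on array 2 of every allele, so the TRA1 level there is only a lower bound, and TDH3 could not be tested with saturated spots left out. On array 1, where a pair of unsaturated spot channels was left, TDH3 then stood at -0.55 in tra1_P3408A, -0.54 in tra1_SRR3413 and -0.35 in tra1_S3463A. In tra1_S3463A, TDH3 passed with the array number as a block (adjusted p = 0.0281), and not without it (-0.57 ± 0.30, adjusted p = 0.0867).

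Calls in lower glycolysis leaned on single arrays. In tra1_P3408A, GPM2, PYK2, ERR1 and ERR2 all lost their call without array 1 (adjusted p = 0.143, 0.277, 0.371 and 0.440) or array 2 (adjusted p = 0.109, 0.158, 0.134 and 0.135). In tra1_SRR3413, GPM2 kept its call under every alternative. PYK2 lost it there without array 1 (-1.09, adjusted p = 0.0673), TDH2 and TDH3 without array 2 (-0.77 and -0.54, adjusted p = 0.0971 and 0.217), and TDH3 also without array 1 or 2 of tra1_P3408A (adjusted p = 0.0633 and 0.0630). In tra1_S3463A, GPM2 lost its call without array 2 (-1.25, adjusted p = 0.0574), PYK2 without array 1 (-0.92, adjusted p = 0.168), and TDH2, ERR1 and ERR2 without either of the 2 arrays (adjusted p from 0.0847 to 0.284). Leaving out array 1 or 2 of tra1_P3408A, which changes only the spread, also ended the calls of PYK2, TDH2, ERR1 and ERR2 in tra1_S3463A (adjusted p from 0.0602 to 0.0915). Where array 1 of tra1_S3463A was counted with tra1_SRR3413, as its source field reads, these 4 genes lost their call in tra1_S3463A (adjusted p from 0.0864 to 0.249), ERR2 lost it in tra1_P3408A (adjusted p = 0.0515), and ERR1 and ERR2 passed in tra1_SRR3413 (adjusted p = 0.0244 and 0.0376).

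Pyruvate decarboxylase turns pyruvate into acetaldehyde. Its main genes PDC1 and PDC5 were at the ceiling, which left PDC6, a minor isoenzyme gene. PDC6 stood at -0.78 and -0.18 in tra1_P3408A, -0.67 and -0.05 in tra1_SRR3413, and -0.74 and -0.14 in tra1_S3463A. All 6 values were below 0, but those of array 1 were far lower than those of array 2 in each allele. The means of -0.48, -0.36 and -0.44 did not pass (adjusted p = 0.248, 0.318 and 0.25), nor was their unadjusted p under 0.05 in limma. With the array number as a block, which takes this gap between dye orientations out of the spread, the same means had adjusted p = 0.00510, 0.00903 and 0.00595.

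Of the 3 regulators GCR1 alone passed, and it was lower in all 3 alleles. GCR1 encodes the activator of the main glycolytic genes. It stood at -1.31 and -1.25 in tra1_P3408A, -1.22 and -1.15 in tra1_SRR3413, and -0.99 and -1.15 in tra1_S3463A. The 6 values of GCR1 lay within a narrow band, and the means were -1.28 ± 0.04 (2.43-fold lower, adjusted p = 0.00311), -1.18 ± 0.04 (2.27-fold lower, adjusted p = 0.00249) and -1.07 ± 0.11 (2.10-fold lower, adjusted p = 0.00442). The intervals were -1.54 to -1.02, -1.44 to -0.93 and -1.33 to -0.81. GCR1 passed under all alternatives in tra1_SRR3413, lost its call in tra1_P3408A without array 1 (-1.25, adjusted p = 0.0924) or array 2 (-1.31, adjusted p = 0.0706), and in tra1_S3463A without array 2 (-0.99, adjusted p = 0.0519). GCR2, for the partner of Gcr1, did not pass and lay between -0.56 and 0.22. In tra1_SRR3413 and tra1_S3463A it was above 0 on array 1 and below 0 on array 2. TYE7 lay between -0.49 and 0.26 and did not pass. The interval of GCR2 reached from -0.72 in tra1_S3463A to 0.44 in tra1_SRR3413, and that of TYE7 from -0.76 in tra1_S3463A to 0.54 in tra1_SRR3413. Many of the known targets of Gcr1 are among the 11 genes at the ceiling, so their levels cannot be set beside the fall of GCR1. The plot of means with their intervals shows the 10 genes that passed in at least 1 allele.

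**Figure D3:**
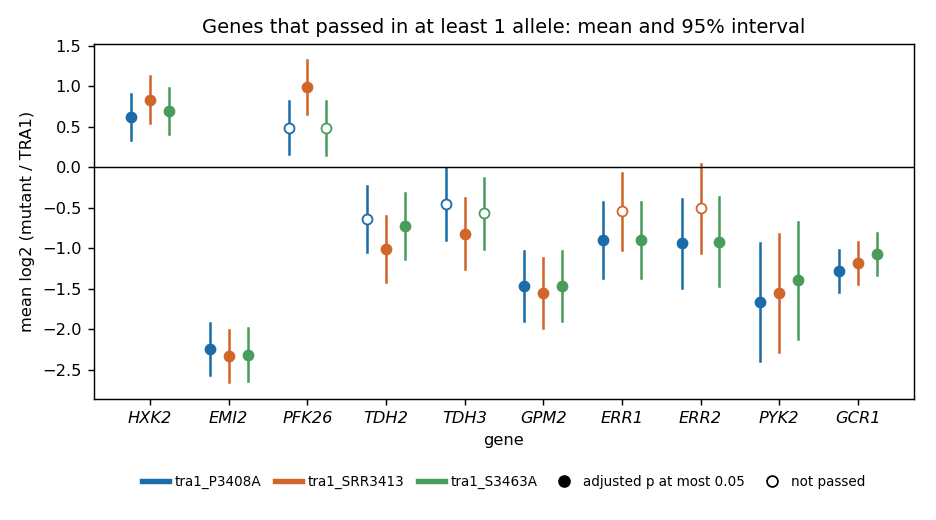
Mean log2 (mutant / TRA1) with its 95% interval from the limma fit for the 10 members that passed in at least 1 allele, with 1 colour per allele, filled points where the adjusted p was at most 0.05 and open points where it was not. HXK2 and PFK26 lie above 0 and the other 8 genes below, and the intervals of the 3 alleles overlap for every gene.

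No difference between alleles passed for any member or for any other gene (0% of genes called in each of the 3 contrasts in limma). At an unadjusted p under 0.05, limma gave 105 of 6119 genes for tra1_SRR3413 minus tra1_P3408A, 105 for tra1_SRR3413 minus tra1_S3463A and 6 for tra1_P3408A minus tra1_S3463A. Among the 20 usable members PFK26 alone was in these counts. It was higher by 0.50 in tra1_SRR3413 than in tra1_P3408A (interval 0.03 to 0.97, unadjusted p = 0.0396 in limma, adjusted p = 0.998). Against tra1_S3463A the difference of PFK26 was 0.51 (interval 0.04 to 0.98, unadjusted p = 0.0376 in limma), which failed the adjustment as well. For EMI2 the difference of tra1_SRR3413 from tra1_P3408A was -0.09, with an interval of -0.55 to 0.38. For GCR1 it was 0.09, with an interval of -0.27 to 0.46, and for HXK2 0.21, with an interval of -0.20 to 0.62. Differences of the size of these bounds therefore remain possible. That ERR1, ERR2, TDH2, TDH3 and PFK26 passed in some alleles and not in others does not by itself show a difference between the alleles.

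Around the 31 genes, 25 further genes of carbon metabolism and its control were read from lists: fermentation and glycerol (9), gluconeogenesis and anaplerosis (5), and other regulators (11). Of these 25, 7 passed in all 3 alleles (10.5% of all genes) and 11 in at least 1 (23.6% of all genes). In the step after pyruvate decarboxylase, from acetaldehyde to ethanol, and in the branch to glycerol, 5 of 9 genes passed in tra1_P3408A, 6 in tra1_SRR3413 and 4 in tra1_S3463A, all lower, against 7.93%, 11.7% and 8.69% of all genes passing in that direction. ADH1, for the main alcohol dehydrogenase of fermentation, was at the ceiling, and ADH4 and GPD1 passed in no allele. ADH5, a minor alcohol dehydrogenase gene, lay between -1.81 and -1.62 on the 6 arrays, with means of -1.66, -1.79 and -1.69 (adjusted p = 0.00140, 0.000778 and 0.00152). ADH3, for the mitochondrial enzyme, had means of -1.06, -0.90 and -1.0 (adjusted p = 0.00418, 0.00435 and 0.00457). ADH2, for the enzyme that consumes ethanol, was lower as well, with means of -1.45, -1.51 and -1.66. RHR2 encodes a glycerol 3-phosphatase, the last step of glycerol synthesis, and had means of -1.32, -1.56 and -1.29 (adjusted p = 0.00566, 0.00271 and 0.00601). HOR2, its paralog, passed in tra1_SRR3413 alone (-0.90, adjusted p = 0.0468), and GPD2, a glycerol 3-phosphate dehydrogenase gene, in tra1_P3408A (-0.77) and tra1_SRR3413 (-0.68). The signals of GPD2, from 1 spot per array, were low, at 196 to 662 over both channels. With the array number as a block HOR2 and GPD2 passed in every allele, and with median centring GPD2 passed in none (adjusted p = 0.109 in tra1_P3408A and 0.0677 in tra1_SRR3413) and HOR2 in all 3. In tra1_P3408A the calls of these genes rested on both arrays: without array 1 all 5 were lost (adjusted p from 0.0582 to 0.325), and without array 2 those of ADH2, ADH3 and GPD2 (adjusted p from 0.0771 to 0.229). HOR2 and GPD2 in tra1_SRR3413 also lost theirs without array 1 of that allele (adjusted p = 0.203 and 0.221) and without either array of tra1_P3408A, and HOR2 without array 2 (adjusted p = 0.0682). In tra1_S3463A, ADH3 lost its call without array 1 or 2 (adjusted p = 0.0509 and 0.0501), and RHR2 without array 2 (adjusted p = 0.0567).

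Of the 5 genes of gluconeogenesis and anaplerosis, 1 passed as higher and 1 as lower in each allele. Of all genes tested 4.76%, 9.33% and 6.37% passed as higher in tra1_P3408A, tra1_SRR3413 and tra1_S3463A, and 7.93%, 11.7% and 8.69% as lower. MDH2, for cytosolic malate dehydrogenase, stood at means of 0.73, 0.92 and 0.81 in tra1_P3408A, tra1_SRR3413 and tra1_S3463A. PYC1, a pyruvate carboxylase gene, had means of -0.74, -0.61 and -0.75, while its paralog PYC2 (-0.07, 0.09 and 0.10) did not pass, nor did FBP1 and PCK1, for enzymes of gluconeogenesis. Of the 11 other regulators none was lower. RAP1, which encodes the partner of Gcr1 at glycolytic promoters, was higher in all 3 alleles. It stood at 0.71 and 0.55 in tra1_P3408A, 0.58 and 0.88 in tra1_SRR3413, and 0.63 and 1.08 in tra1_S3463A. The means of RAP1 were 0.63 ± 0.11 (adjusted p = 0.0465), 0.73 ± 0.21 (adjusted p = 0.0223) and 0.86 ± 0.32 (adjusted p = 0.0189). ABF1, for another general regulatory factor, passed as higher in tra1_SRR3413 (0.61) and tra1_S3463A (0.63), and MIG2, for a glucose repressor, in tra1_SRR3413 (0.92). MIG2 was above 0 on all 6 arrays, with means of 0.81 in tra1_P3408A and 0.79 in tra1_S3463A. With the array number as a block MIG2 passed in these 2 alleles too (adjusted p = 0.00199 and 0.00203). REB1, PDC2, MIG1, SNF1, REG1, RGT1, MTH1 and STD1 passed in no allele. The call of RAP1 was lost without array 1 or 2 of tra1_P3408A in every allele (adjusted p from 0.0558 to 0.392), with median centring in tra1_P3408A (0.68, adjusted p = 0.0651), without array 2 of tra1_SRR3413 there (0.58, adjusted p = 0.183), and without array 1 or 2 of tra1_S3463A there (adjusted p = 0.0516 and 0.163). Those of MDH2 and PYC1 were lost in tra1_P3408A and in tra1_S3463A without either array of the allele (adjusted p from 0.0519 to 0.226), and in tra1_SRR3413 without array 2 (adjusted p = 0.0620 and 0.143), PYC1 also without array 1 (adjusted p = 0.0711). ABF1 and MIG2 each lost their calls without array 1 or 2 of tra1_P3408A, and ABF1 also without either array of its own allele, MIG2 without array 2 of tra1_SRR3413 (adjusted p from 0.0706 to 0.335 over these). The plot of these genes by array shows the alcohol dehydrogenase genes, RHR2, HOR2 and GPD2 to the left of 0 and RAP1 and MDH2 to the right, while GPD1 lay on both sides.

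**Figure D4:**
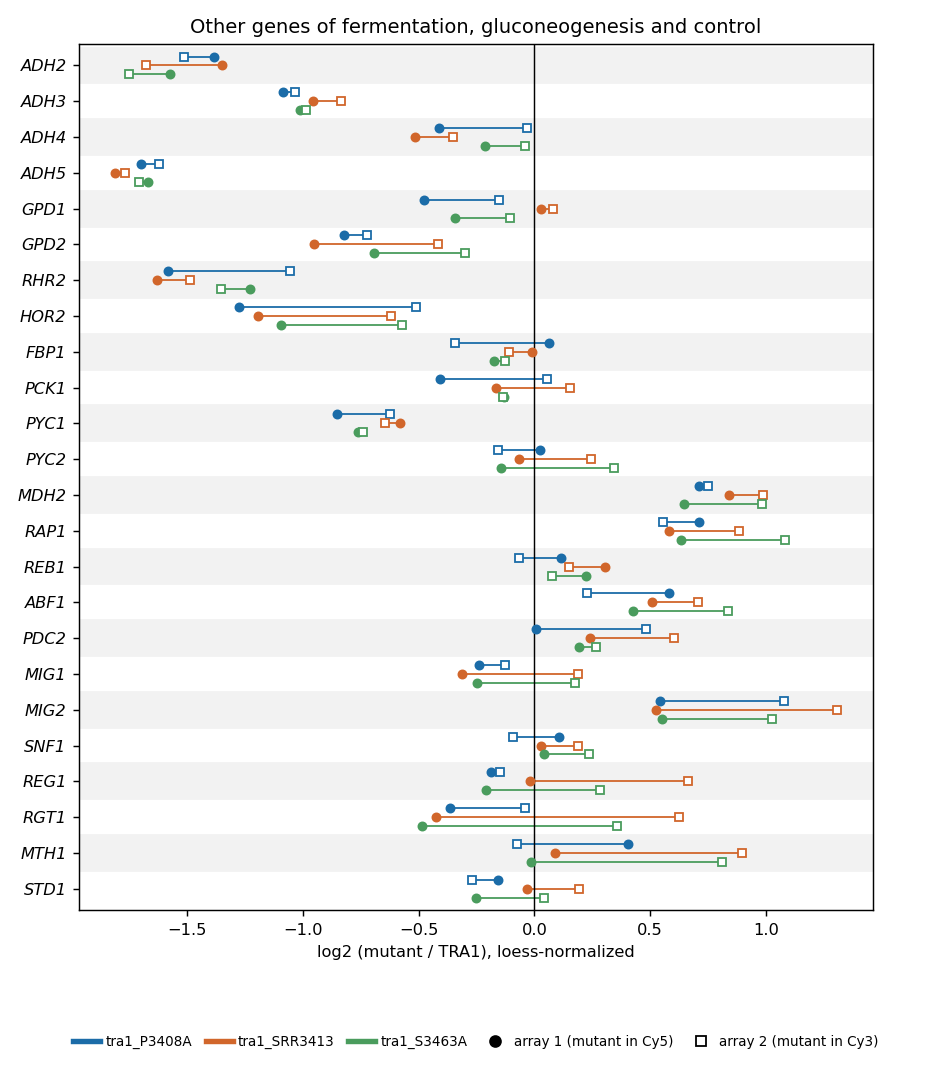
Log2 (mutant / TRA1) on each array for the genes of the other lists, ADH1 left out as saturated, with filled circles for array 1, open squares for array 2 and 1 colour per allele. ADH2, ADH3, ADH5, RHR2 and PYC1 lie below 0 and MDH2 and RAP1 above 0 on all 6 arrays.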

How the data were processed

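Dual-colour Agilent arrays measured amplified RNA of 3 mutant strains against TRA1, with 2 arrays per allele and dyes exchanged. The RNA was amplified linearly and labelled by a service company, per the labels; amplification can compress or shift ratios. Growth conditions are not given in the sources used here. The deposited scanner files hold, per the file headers, spot intensity (mean signal and local background), pixel counts, other 0 or 1 marks such as saturation, and a log10 ratio of Cy5 over Cy3 from Agilent Feature Extraction 7.5.1. The deposited series table matched the log10 ratio of the dye-normalized signals in these files, turned to mutant over TRA1, for 100% of values within 1e-04.

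Titles and label fields set groups and dyes. The source field of 1 channel on array 2 of tra1_SRR3413 and of tra1_S3463A names another dye than its label field, and array 1 of tra1_S3463A is named for another strain there. With limma 3.58.1 (R 4.3.3), intensities were background-corrected (normexp, offset 50) and loess-normalized within arrays, controls at weight 0; spots marked as outliers were dropped and spots of a gene averaged. Genes needed a signal well above background in 1 channel on 2 arrays and a value on all 6 arrays, which 6119 of 6256 met. One fit over 6 arrays (3 residual degrees of freedom) gave a mean per allele, tested against 0, and contrasts between alleles, two-sided, Benjamini-Hochberg adjusted, threshold 0.05. The number of arrays limits the precision.

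The array number marks dye orientation. Deviations of same-numbered arrays correlated between alleles (0.512, 0.467 and 0.930), so fits with it as a block were also made. Replicate arrays correlated at 0.639 to 0.765 over all genes. Between 0.887% and 1.55% of gene spots per array were saturated in at least 1 channel. Slides held 2 arrays of different alleles.

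Each gene had 1 probe, and 92.0% of the names matched the RefSeq table of assembly R64, used for names only. The files name no genome build, so no coordinates are given, and no sequence or promoter table was used here, so the planned search for promoter motifs was not run. Members and lists were chosen with earlier results of these data known. Every member is named; those that passed in at least 1 allele are given on every array, the others by range, and PFK1, PFK27 and PDC6 on every array, a choice made after their values were seen. Alternatives changed the background, normalization, filter, outlier and saturated spots, block, arrays and the doubtful label. The fit was tested on simulated data.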

Additional observations from a re-analysis of the deposited data

How the results depend on the processing

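No call of a member or of the other carbon genes changed direction under any of the alternatives tried, and no difference between alleles passed under the 16 alternatives that allow one. Counting each call once per alternative, 239 of 252 calls of members were kept under alternatives other than leaving out 1 array. When 1 array was left out, 99 of 138 were kept. The alternatives in the first count are not separate checks. The processed signals and log ratios of the scanner software and the series table gave the same members, and the blocks may give p-values that are too small. Median centring left 4 members in tra1_P3408A and 4 in tra1_S3463A, where HXK2, ERR1 and ERR2 lost their calls in both and TDH2 in tra1_S3463A. With the replicate block (array number) 12, 13 and 13 members passed in tra1_P3408A, tra1_SRR3413 and tra1_S3463A, with 2214, 3010 and 2635 of all genes. The slide as a block gave 14, 13 and 25 members and 2679, 3126 and 2983 genes, with 1 residual degree of freedom. Only the arrays of tra1_P3408A gave 14 members and 1582 genes there. Counting array 1 of tra1_S3463A with tra1_SRR3413 left 3 members and 326 genes in tra1_S3463A and gave 2004 genes in tra1_SRR3413. The cause of these shifts was not tested. Leaving out 1 array gave 0 to 8 members and 1 to 801 genes in tra1_P3408A, 4 to 8 members and 330 to 1218 genes in tra1_SRR3413, and 2 to 9 members and 138 to 963 genes in tra1_S3463A; a lone array is then assumed to vary like the others. EMI2, GPM2 and GCR1 in tra1_SRR3413 and EMI2 in tra1_S3463A kept their call throughout. Scanner saturation limits the members most, since 11 of 31 cannot be read. Some others gave low signals, such as ERR1 and ERR2 at 213 to 672 over both channels.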
